A study of Mus musculus with 4 samples.

Results

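Forkhead transcription factors share a DNA-binding domain named after a fly gene, and mouse members carry symbols of Fox plus a letter and a number. This account covers the 39 protein-coding forkhead genes on chromosomes 1 to 19 without Foxp1, Foxo1 and Foxp3, out of 44 forkhead genes and of 20665 protein-coding genes on those chromosomes. They were chosen by symbol, from RefSeq's genes on GRCm38.p6 (mm10). Chromatin accessibility was profiled by ATAC-seq, which uses a transposase to insert sequencing adapters into DNA that is not wrapped in nucleosomes, in naive CD4 T cells of mouse spleen and peripheral lymph nodes, tissues labelled as "Spleen and pLN". The labels give 2 libraries of WT genotype and 2 of DDX55 KO genotype; they name no age, strain or Cre driver and do not say whether replicates came from separate mice. The data consist of 1 deposited list of regions for all 4 libraries together, so every value below is a position or a count in that pooled list, with no error between libraries and no comparison of genotypes.

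Forkhead proteins bind DNA through a winged-helix fold, and several can bind their sites in closed chromatin. The FOXO proteins are held in the cytoplasm after phosphorylation by AKT and enter the nucleus of resting cells, where they maintain genes of T cell homing and survival, and FOXP proteins take part in keeping naive T cells quiescent. Many other members act in embryonic patterning or in single tissues, such as FOXA proteins in liver and lung, FOXE1 in thyroid and FOXL2 in ovary.

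The forkhead genes used in many cell types carried accessible regions at their ends, and most of those of embryonic patterning and single tissues carried none. Members were divided from general knowledge of their roles into 9 widely expressed genes (Foxj2, Foxj3, Foxk1, Foxk2, Foxm1, Foxn2, Foxn3, Foxo3 and Foxp4) and 30 developmental or tissue-restricted genes. This division was made with earlier results of these data known, so the contrast between the groups is a description only. A region lay within 1 kb of an annotated gene end in 9 of the 9 widely expressed genes (95% exact interval 66.4 to 100%). The same held for 10 of the 30 other members (33.3%, 17.3 to 52.8%). Over all 39 members the count was 19 (48.7%, 32.4 to 65.2%), against 54.2% of the 20626 other protein-coding genes of chromosomes 1 to 19, so the family as a whole lay near the background. No test was made between the groups. The exact intervals cover counting error over genes only, and no error between libraries can be given because no value per library exists.

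In the gene and the 10 kb on either side, the 39 members held 89 regions, and no region was counted for more than 1 member. Of these, 23 lay at a gene end, 52 inside a gene away from its ends and 14 in a flank. The 9 widely expressed genes held 56 of them, with a median of 4 and a range from 2 to 21. The 30 others held 33, with a median of 0 and a range from 0 to 13, and the median of other protein-coding genes was 2. Regions were absent altogether from 16 members (41.0%, 25.6 to 57.9%), all of them developmental or tissue-restricted, whereas 20.4% of other protein-coding genes had none. With flanks of 20 kb in place of 10 kb the count was 8 (20.5%), against 14.5% of other genes. A region inside the gene away from its ends was present in 11 members (28.2%), against 40.3% of other genes. Members were shorter, with a median length of 4.09 kb against 17.5 kb. Under 5 kb, 1 of 22 members had an inside region (4.55%), against 2.35% of other genes. At 5 to 20 kb it was 0 of 1 widely expressed member and 0 of 4 others, against 23.3%. At 20 to 100 kb it was 7 of 7 and 1 of 3, against 62.4%. Over 100 kb it was 1 of 1 in each group, against 94.0%.

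Gene length differed between the groups, and accessibility was therefore set beside genes of similar length. The widely expressed members had a median length of 57.5 kb and the others 3.76 kb, since many forkhead genes of development have short transcription units. Among genes under 5 kb, 8 of 22 developmental or tissue-restricted members had a region at an end (36.4%, 17.2 to 59.3%), close to the 32.8% of 4547 other genes of that length. Among genes of 20 to 100 kb, 7 of 7 widely expressed members had one (59.0 to 100%), against 64.5% of other genes. In this length class the median density was 5.73 regions per 100 kb of gene and flanks for these 7 members and 4.13 for other genes. The share at gene ends of short developmental members thus lay near that of short genes in general. Regions were absent from the gene and 10 kb on either side in 13 of these 22 short members (59.1%, 36.4 to 79.3%), against 46.0% of other genes under 5 kb, a share within that interval.

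**Figure D1:**
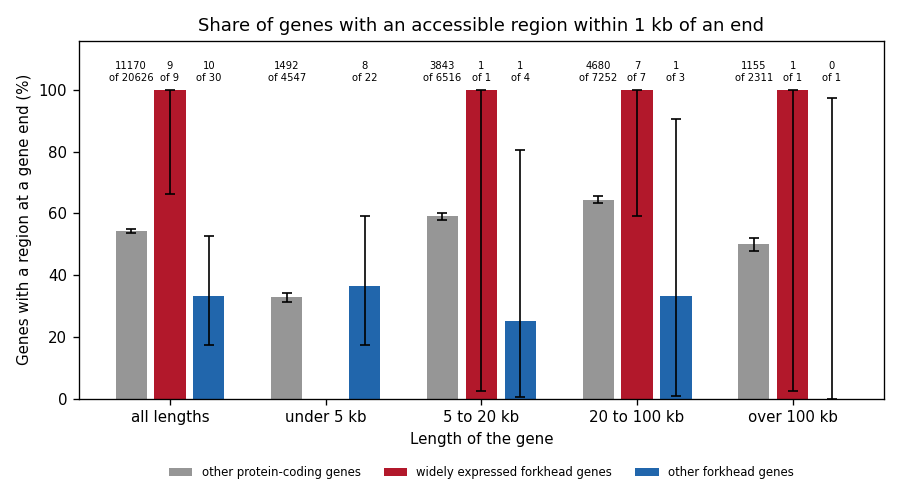
Share of genes (vertical axis, percent) with an accessible region within 1 kb of an end, by gene length; bars are other protein-coding genes and the 2 groups of forkhead genes, error bars are 95% exact binomial intervals, and the counts stand above the bars. Short forkhead genes (36.4%) sit beside short genes in general (32.8%). Widely expressed members have 7 of 7 at 20 to 100 kb, and only 1 gene each at 5 to 20 kb and over 100 kb, both with an end region.

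Promoter sequence gave another view. RefSeq promoter windows of GRCm38.p6, from 250 bases before to 50 after an annotated start, were at hand for 24 of the 39 members (26 windows, 3 of them for Foxa2). Windows were classed by the CpG observed/expected ratio, which is near 1 where CpG dinucleotides are as frequent as base composition predicts and low where they are depleted. Of windows of other protein-coding genes with a ratio over 0.75, 81.3% overlapped an accessible region, against 58.8% at 0.4 to 0.75 and 10.3% under 0.4, or 47.9% in all. Of the 5 widely expressed members over 0.75 (Foxj2, Foxj3, Foxk2, Foxo3 and Foxp4), 4 overlapped a region, Foxj2 being the exception. Of the 7 developmental windows over 0.75 (Foxa1, a start of Foxa2, Foxc1, Foxd2, Foxd3, Foxf2 and Foxi3), 1 did, that of Foxd2. At 0.4 to 0.75 it was 1 of 9, that of Foxa3. CpG-rich starts of developmental members thus mostly lacked a region in these cells, in contrast to CpG-rich starts at large; these windows are few, and the difference was not tested.

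**Figure D2:**
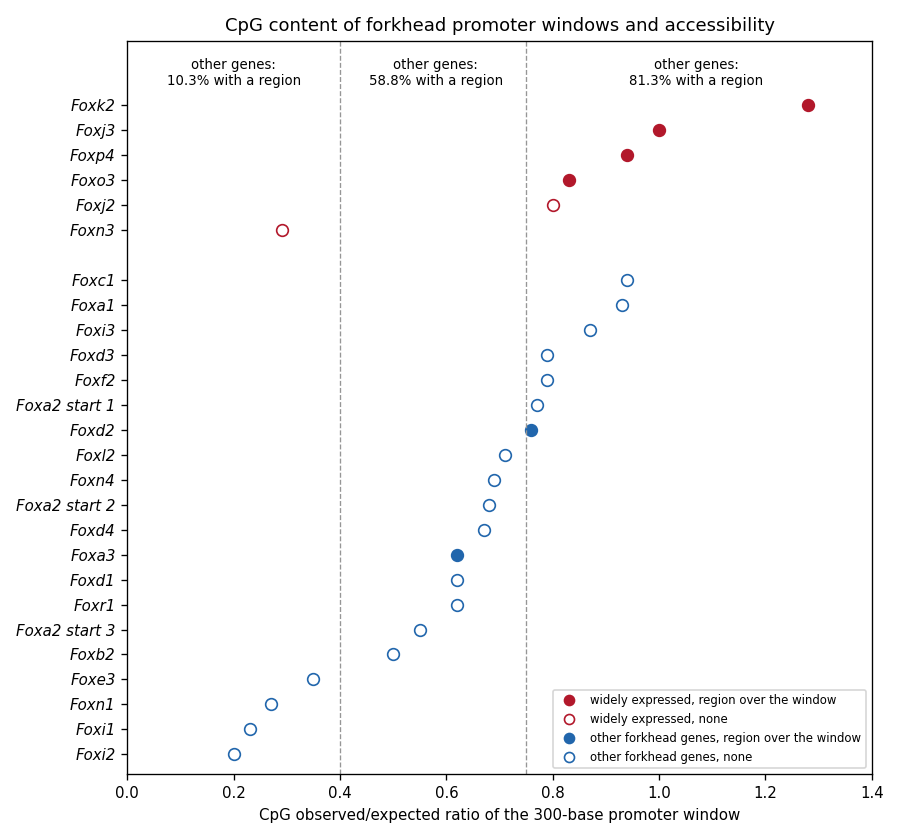
CpG observed/expected ratio (horizontal axis) of each forkhead promoter window, with filled points where an accessible region overlaps the window and open points where none does; dashed lines mark the class limits and the text gives the share of other genes' windows with a region. Foxp4 and Foxc1 share a ratio of 0.94, yet only the window of Foxp4 is overlapped.

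The following windows are shown because all have a ratio over 0.75 and differ in accessibility, 5′ to 3′ on the strand of the gene, with the searched motifs in capitals. The first 4 overlapped an accessible region. They are Foxk2 (chr11:121259737-121260036, plus strand, ratio 1.28), Foxp4 (chr17:47924583-47924882, minus strand, 0.94), Foxo3 (chr10:42276646-42276945, minus strand, 0.83) and Foxd2 (chr4:114908849-114909148, minus strand, 0.76).
Foxk2: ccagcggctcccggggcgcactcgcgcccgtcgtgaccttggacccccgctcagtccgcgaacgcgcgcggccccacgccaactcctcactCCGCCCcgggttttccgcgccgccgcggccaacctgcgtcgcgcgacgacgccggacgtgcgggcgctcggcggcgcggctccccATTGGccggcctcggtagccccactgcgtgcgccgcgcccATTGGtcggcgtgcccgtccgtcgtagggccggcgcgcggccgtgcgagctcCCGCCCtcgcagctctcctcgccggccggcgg
Foxp4: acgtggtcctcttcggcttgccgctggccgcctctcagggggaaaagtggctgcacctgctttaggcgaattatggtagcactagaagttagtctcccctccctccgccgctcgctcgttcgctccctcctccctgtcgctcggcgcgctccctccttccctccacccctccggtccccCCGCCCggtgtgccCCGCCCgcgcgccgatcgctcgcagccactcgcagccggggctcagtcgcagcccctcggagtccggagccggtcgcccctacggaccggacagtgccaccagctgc
Foxo3: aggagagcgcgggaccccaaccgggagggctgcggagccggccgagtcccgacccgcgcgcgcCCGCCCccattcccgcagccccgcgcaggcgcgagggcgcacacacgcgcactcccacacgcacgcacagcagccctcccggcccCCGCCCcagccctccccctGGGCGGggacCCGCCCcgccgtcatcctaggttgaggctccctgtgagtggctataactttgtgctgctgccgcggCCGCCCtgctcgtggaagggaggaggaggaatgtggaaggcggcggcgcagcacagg
Foxd2: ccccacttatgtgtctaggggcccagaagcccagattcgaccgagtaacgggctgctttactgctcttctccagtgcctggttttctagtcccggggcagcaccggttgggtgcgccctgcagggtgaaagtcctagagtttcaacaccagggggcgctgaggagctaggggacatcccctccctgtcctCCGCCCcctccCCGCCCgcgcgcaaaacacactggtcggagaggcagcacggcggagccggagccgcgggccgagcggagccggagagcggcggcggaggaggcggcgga
The other 2 overlapped none, with ratios within the range of the first 4. They are Foxc1 (chr13:31806396-31806695, plus strand, 0.94) and Foxa1 (chr12:57546062-57546361, minus strand, 0.93).
Foxc1: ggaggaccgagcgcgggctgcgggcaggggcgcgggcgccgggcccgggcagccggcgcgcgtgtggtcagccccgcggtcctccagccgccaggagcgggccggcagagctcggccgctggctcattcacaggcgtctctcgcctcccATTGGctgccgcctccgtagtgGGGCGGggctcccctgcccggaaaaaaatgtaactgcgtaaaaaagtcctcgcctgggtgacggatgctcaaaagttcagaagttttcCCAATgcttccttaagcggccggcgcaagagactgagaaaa
Foxa1: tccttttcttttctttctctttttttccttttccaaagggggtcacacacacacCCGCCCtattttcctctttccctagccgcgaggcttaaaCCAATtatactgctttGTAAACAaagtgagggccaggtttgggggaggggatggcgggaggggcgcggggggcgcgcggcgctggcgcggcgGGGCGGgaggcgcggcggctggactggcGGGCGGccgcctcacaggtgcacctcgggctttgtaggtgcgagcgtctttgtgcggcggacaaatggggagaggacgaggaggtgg

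In these 6 windows the capitals mark GGGCGG, a core bound by SP and KLF factors, CCAAT, the box bound by NF-Y, and in Foxa1 also GTAAACA, the core forkhead site, on either strand and with overlaps allowed. GGGCGG was found in 5 of the 6 windows of widely expressed members and in 15 of the 20 windows of the others, against 47.0% of all 20085 windows of protein-coding genes. CCAAT was found in 1 of 6 (Foxk2) and in 11 of 20, against 38.1% of all windows. The forkhead core GTAAACA was found in the window of Foxa1 alone, against 3.04% of all windows. Among all protein-coding genes, GGGCGG was in 68.6% of windows with a region and 27.2% of those without. The ETS core CCGGAAG, in 21.5% of all windows with a region and 3.03% of those without, was in none of the 26 member windows, and neither was the YY1 core AAGATGG (6.29% of all windows). TGACGTCA, the CREB and ATF site (2.30% of all), and the E box CACGTG (7.89%) were each in 1 member window, that of Foxd3. The NRF1 core GCGCATG (4.84%) was in Foxn4, and the TATA box TATAAA (12.7%) was in Foxa2 and Foxa3. These are matches of letters in the windows and are not measured binding.

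Foxo3, an AKT-regulated relative of Foxo1, had the widest end region of all members. It spanned chr10:42276533-42278265 (1733 bp), overlapped the annotated start and covered the whole 300-base window, and 0.313% of the 63301 regions on chromosomes 1 to 19 were as wide or wider. A further 4 regions of 357 to 897 bp lay inside the gene, the widest at chr10:42193015-42193911 in the part of the gene far from its start. Foxo3 thus held 5 regions over 94.9 kb, or 4.35 per 100 kb of gene and flanks, beside 7 regions and 6.88 per 100 kb for Foxo1 over 81.8 kb. Foxo6, a brain-enriched member, had 1 region in all, of 450 bp, at chr4:120287728-120288177, 466 bp beyond its upper-coordinate end. The X-linked Foxo4, outside the 39 members, had a region at an end and 2 in all.

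Foxp4, a relative of Foxp1 found in T cells and lung, had 6 regions over 57.5 kb (7.74 per 100 kb). Its end region, chr17:47924088-47925515 (1428 bp), overlapped the annotated start and also lay within 1 kb of an end of the lncRNA gene Gm46601. Inside the gene, 4 regions of 392 to 714 bp were found, among them chr17:47922174-47922692, whose middle lay 2199 bp downstream of the start. Foxp1 (597 kb) had 8.58 regions per 100 kb, and Foxp2 (541 kb), a gene of brain and speech circuits, had 2.32. These densities come from genes of unlike length. The median of other genes was 4.13 at 20 to 100 kb, the class of Foxp4, and 1.64 over 300 kb.

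The FOXK pair differed in the number of regions. FOXK1 and FOXK2 repress autophagy genes and recruit the BAP1 deubiquitinase complex. Foxk1 had 9 regions over 60.5 kb, or 11.2 per 100 kb, the highest density among widely expressed members. Its lower-coordinate end was flanked by regions of 234 bp (chr5:142401213-142401446, 50 bp outside the gene) and 506 bp (chr5:142401885-142402390, 387 bp inside it), and no region overlapped the annotated end itself. Inside it lay the widest region of any member, chr5:142440338-142442243 (1906 bp), 39.8 kb from the lower end, and 83 of the 63301 regions (0.131%) were as wide. Foxk2 had 2 regions over 49.9 kb, or 2.86 per 100 kb. These were chr11:121259346-121260044 (699 bp), over its start, and a region of 206 bp 19.4 kb into the gene.

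Among the FOXJ genes, Foxj2 and Foxj3 encode broadly present transcriptional activators. Foxj2 had 4 regions. A region of 729 bp (chr6:122820300-122821028) began 115 bp downstream of the annotated start, 1 of 168 bp lay 245 bp beyond the other end, and 1 of 1628 bp (chr6:122810321-122811948) lay 8.23 kb upstream, where it overlapped no annotated gene. Foxj3 had 3 regions over 89.5 kb, of which chr4:119539131-119539848 (718 bp) overlapped the start and chr4:119540166-119540660 (495 bp) lay 504 bp inside the gene. The former also lay within 1 kb of an end of the neighbouring coding gene Frg2f1. Foxj1, known for cilia and also for restraining T cell activation, was placed among the tissue-restricted members. It had a single region, chr11:116335325-116335904 (580 bp), over its upper-coordinate end and within 1 kb of an end of Rnf157, which encodes a ubiquitin ligase, so the region cannot be assigned to either gene.

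Of the FOXN genes, the widely expressed Foxn2 and Foxn3 were accessible at an end, and Foxn1 and Foxn4 were not. Foxn2 had 4 regions over 49.8 kb, with chr17:88439993-88440803 (811 bp) over the lower-coordinate end, chr17:88441682-88442128 (447 bp) 977 bp inside it, and regions of 263 and 187 bp that lay 19.8 and 20.1 kb from the lower end. Foxn1, the thymic epithelial factor lost in nude mice, had 2 regions inside the gene (790 and 166 bp) and none at an end. Foxn4, a factor of retinal progenitors, had 0, and the nearest region lay 11.9 kb away. Foxm1, which drives genes of mitosis in dividing cells, had a region of 752 bp at chr6:128362275-128363026 over its lower-coordinate end. This region also overlapped Rhno1, a DNA damage response gene whose end lies beside that of Foxm1, so it cannot be assigned to either gene. The other region of Foxm1, 6.82 kb away, lay at ends of Rhno1 and Tulp3.

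**Figure D3:**
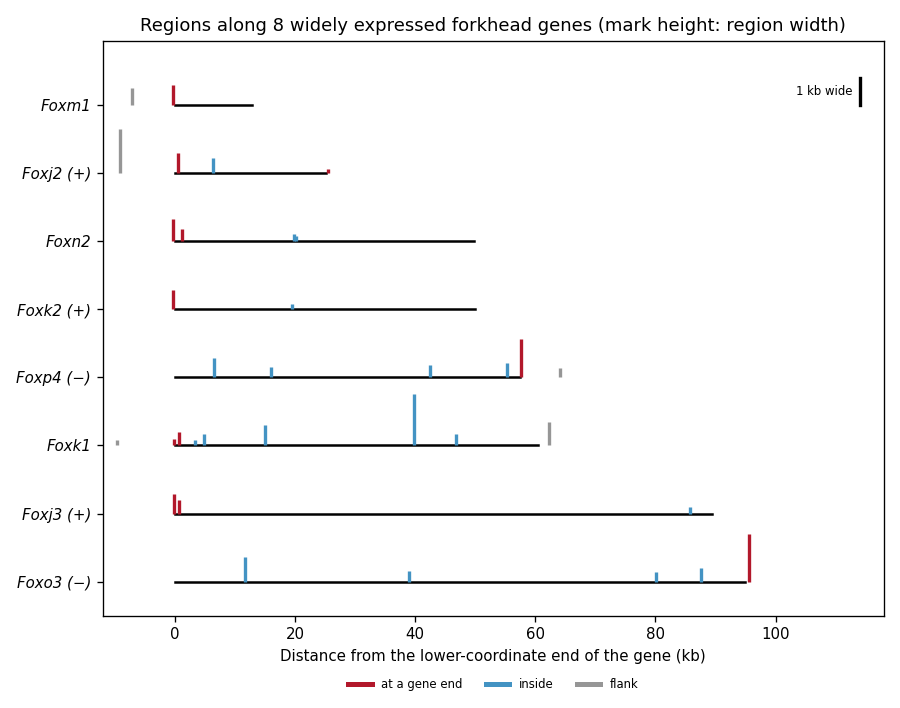
Position of regions (marks; height in proportion to region width, with a 1 kb scale mark) along 8 widely expressed forkhead genes (black lines), as distance in kb from the lower-coordinate end; (+) and (−) give the strand where the promoter table holds it. The marks of Foxo3 (1733 bp) and Foxp4 (1428 bp) at an end, and of Foxk1 (1906 bp) inside the gene, are the tallest in or at the genes.

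The longest members, Foxn3 and Foxp2, carried most of the regions inside forkhead genes. Foxn3 (374 kb), which encodes a repressor linked to cell cycle checkpoints, had 21 regions, 19 of them inside the gene. The widest was chr12:99467892-99468971 (1080 bp), with its middle 18357 bp upstream of the RefSeq start in the promoter table, which itself had no region within 1 kb. The end region of Foxn3, chr12:99563587-99563929 (343 bp), overlapped its upper-coordinate end and the lncRNA gene Gm26839. Foxp2 (541 kb) had 13 regions, 12 inside the gene and 0 at an end, the closest inside regions lying 70.2 kb from the lower end and 79.1 kb from the upper. Regions inside Foxp2 had a median width of 216 bp (94 to 399 bp), against 292 bp (141 to 1080 bp) inside Foxn3, and 0 of 12 against 5 of 19 reached 500 bp. All regions on chromosomes 1 to 19 had a median of 292 bp, and 27.1% reached 500 bp, so widths inside Foxn3 (26.3%) lay near this background. Of 531 other genes over 300 kb, 33.5% had a region at an end, so most such long genes lacked one, as Foxp2 did. Their median was 9 regions (quartiles 6 and 14), at 1.64 per 100 kb. Of these genes, 517 had a lower density than Foxn3 (5.34) and 398 a lower density than Foxp2 (2.32). Foxp1, of similar length to Foxp2, held 53 regions, 50 of them inside the gene.

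**Figure D4:**
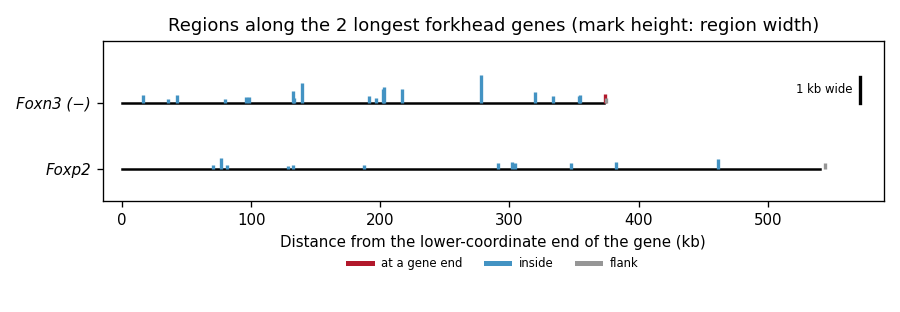
Position of regions (marks; height in proportion to region width, with a 1 kb scale mark) along Foxn3 and Foxp2, as distance in kb from the lower-coordinate end. Foxn3 has 19 marks inside the gene and 1 at its upper end, Foxp2 has 12 inside and 0 at an end.

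The 10 developmental or tissue-restricted members with an end region had narrower regions, and 3 of them lay beside another coding gene. Their end regions had a median width of 427 bp (141 to 1130 bp), against 729 bp (343 to 1733 bp) for the widest end region of each widely expressed member and 715 bp at ends of other protein-coding genes. For Foxa3, Foxh1 and Foxj1 the region also lay within 1 kb of an end of another coding gene. Among the 9 widely expressed members, 2 (Foxj3 and Foxm1) had such a shared end region. That of Foxa3, a liver and gut factor, was chr7:19023608-19024699 (1092 bp), which overlapped Sympk, an mRNA 3' processing gene. That of Foxh1, the SMAD partner in Nodal signalling, was chr15:76671248-76672055 (808 bp), which overlapped Ppp1r16a, a phosphatase regulator. Without regions shared with another coding gene, 7 of the 30 and 8 of the 9 widely expressed members kept an end region, Foxm1 being the member of the latter group that did not. The same count was not made for other protein-coding genes, so these numbers have no background.

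The remaining 7 such regions had a median width of 254 bp. The exception was Foxd2, whose region chr4:114908585-114909714 (1130 bp) covered its whole promoter window and also lay at an end of the lncRNA gene Foxd2os. Foxc2, a factor of lymphatic and blood vessels, had chr8:121116031-121116434 (404 bp) over its lower-coordinate end and a region of 411 bp 2.40 kb below that end. The others were Foxb1 (215 bp, 154 bp beyond its lower-coordinate end), Foxi2 (225 bp, 566 bp before its start), Foxo6 (450 bp), Foxd3, a neural crest factor (141 bp, 575 bp inside the gene), and Foxq1 (254 bp). The region of Foxq1 lay 994 bp from the upper end and that of Foxf2 1.02 kb beyond its gene, so these stand just inside and just outside the 1 kb limit.

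The 16 members with 0 regions in the gene and 10 kb on either side were Foxa1, Foxa2, Foxb2, Foxc1, Foxd1, Foxd4, Foxe1, Foxe3, Foxf1, Foxi1, Foxi3, Foxl1, Foxl2, Foxn4, Foxr1 and Foxs1. They include the liver and lung pioneer factors Foxa1 and Foxa2, the kidney stromal factor Foxd1, the thyroid factor Foxe1, the lens factor Foxe3, the gut and lung mesenchyme factor Foxf1 and the ovarian factor Foxl2. The nearest region lay 33.7 kb from Foxa1, 44.9 kb from Foxa2, 45.1 kb from Foxi3, 50.4 kb from Foxd4 and 115 kb from Foxc1, the farthest of all members. At the other extreme it lay 10.3 kb from Foxl1, just past the 10 kb limit, 13.9 kb from Foxe1 and 14.7 kb from Foxe3. Over the 22 members under 5 kb the median distance to the nearest region was 14.3 kb, against 7.64 kb for other genes of that length; over all 30 developmental or tissue-restricted members it was 11.1 kb. Depth per library is unknown, so a gene without a region was not called accessible here and is not shown to be closed.

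Some members, all developmental or tissue-restricted, lie in 3 clusters with gaps of at most 300 kb between members. The clusters hold 3, 3 and 2 members, and in each of them 1 member had an end region. For scale, an end region was present in 33.3% of all 30 developmental or tissue-restricted members and in 32.8% of other genes under 5 kb. Foxq1, Foxf2 and Foxc1 lie within 252 kb of chromosome 13, where 3 regions of 254, 301 and 218 bp were found, the first at Foxq1. Foxf1, Foxc2 and Foxl1 lie within 46.3 kb of chromosome 8, where 4 regions were found. The widest of these, 953 bp, lay at an end of Mthfsd, the only other coding gene in the span, and the region of 404 bp lay at Foxc2. Foxd2 and Foxe3 lie within 19.8 kb of chromosome 4, where the region at Foxd2 was the only one.

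Genes that act with forkhead factors were mostly accessible at an end, read against the 54.2% of other protein-coding genes. Counts of regions per gene include the 10 kb on either side, where regions may belong to neighbouring genes. Of 20 FOXO target genes 19 had an end region, with a median of 4 regions per gene, with 10 at Sesn1, a stress-response gene, and 8 at Pik3ip1, an inhibitor of PI3K and the exception without an end region. Of 20 upstream regulators of FOXO 16 had one, with a median of 4.5. Sgk1, a kinase that phosphorylates FOXO proteins, had 11 regions, and Pik3cd, the PI3K subunit p110 delta, had 9. The 4 without an end region included Skp2 and Usp7, with 1 and 8 regions inside the gene. Of 14 genes linked to FOXM1 and the DREAM complex 14 had one, with a median of 2, led by Aurkb (6), Lin54 (4) and Rbl2 (4). Of the 6 of Aurkb, 1 lay at an end and 0 inside the gene away from its ends. Of 10 FOXK partners on these chromosomes 8 had one, the exceptions being the corepressor Sin3a and Srf. Their median was 4 regions, led by Asxl2 (7), Mbd5 (7) and Dvl2 (6, with 1 at an end and 1 inside). The lists were compiled from general knowledge with earlier results of these data known, and no test was made on them.

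Markers of the labelled cell type were accessible. Of 12 T cell markers 12 had an end region, among them Cd3e, Cd4 and Lef1, against 0 of 5 B cell, 2 of 5 myeloid, 0 of 3 natural killer and 2 of 4 red cell markers, and 1 of 2 CD8 genes. Some B cell genes had regions elsewhere, such as 5 inside Pax5. The list held 64525 regions in all, and depth per library is not known from it. It has no value per library, so the targeted gene could not be checked against the genotype labels.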

How the data were processed

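ATAC-seq regions of naive CD4 T cells were analysed from the deposited list of 3 columns (chromosome, start, end; 64525 regions), which holds no value per library and serves all 4 libraries. The submitters' processing notes list mm10 as the build and, as tools, MACS3 3.0.0b1, SAMtools 1.15.1, Bowtie2 2.5.08 and fastp 0.12.4. Their roles and settings, and how peaks were merged by the authors, are not given in these sources. Starts were converted to 1-based positions. Gene ends and lengths came from the RefSeq table of GRCm38.p6, whose strand is known here only for genes in the promoter table. A region counted at an overlap of at least 1 bp: within 1 kb of either gene end, inside the gene otherwise, or within 10 kb. The planned genotype test needs values per library and was not analysed here. Shares carry 95% exact (Clopper-Pearson) intervals, and no test was run. The symbol rule uses no measured value; the family, its groups and the lists were chosen with earlier results of these data known. The rule for named genes was to name every member, give positions of end regions, describe the 10 members with the most regions, and name from each list the 3 genes with the most regions and up to 3 without an end region; a few of the genes it selects are left out. Alternatives were other windows, flanks, overlaps, widths and members. Counting was tested on simulated regions. Python 3.11.15, pandas, SciPy and Matplotlib were used.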

Additional observations from a re-analysis of the deposited data

How the results depend on the processing

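Of 43 values recomputed under alternatives, 34 stayed within 1.5 times the value given. With the annotated start alone, 9 of 24 members with a promoter entry had a region there (37.5%, against 55.3% of other genes). These were 5 of 6 widely expressed members and 4 of 18 others. A region inside the gene away from the start was present in 7 (29.2%, against 39.8% of other genes). Fewer genes could be counted. With regions of at least 300 bp, the members held 52 regions, and 7 had an inside region (17.9%, against 26.2% of other genes). An end region was then present in 15 of 39 members (38.5%, against 49.4% of other genes). These were 6 of 30 developmental or tissue-restricted members and 9 of 9 widely expressed ones. With 20 kb flanks, 8 members had no region (20.5%, against 14.5% of other genes). With Foxp1, Foxo1, Foxp3, Foxo4 and Foxr2 added, the total was 156 regions; Foxo1, Foxp1 and Foxo4 were then counted as widely expressed, a choice made after seeing the data. Leaving out end regions shared with another coding gene was also chosen after seeing the data and left 15 members with an end region. That count was not made for other genes. No paired analysis was possible because the list has no value per library; for the same reason no library could be left out. Depth per library is unknown, which limits what the absence of a region shows.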
